A study of Saccharomyces cerevisiae with 10 samples.

Results

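The mitochondrial ribosomal protein genes of budding yeast were described across 5 strains with changes in the histone acetyltransferase complex NuA4. A gene was a member if its symbol or a synonym was MRPL, MRPS, MRP or RSM followed by a number. The R64 RefSeq gene table held 68 such genes, and 67 of them were measured among 5315 named genes and 6377 features on the arrays. Of the 67, 66 matched by symbol. MET13, an enzyme of methionine synthesis whose synonym is MRPL45, matched by synonym only. By the subunit names in the gene table, 37 members belonged to the large subunit and 27 to the small subunit. The 3 others, MET13, MRP8 and RSM22, had no subunit name there. MRP35 was the matched gene without a measurement.

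The mitochondrial ribosome translates the few mRNAs encoded in mitochondrial DNA, which specify core subunits of the respiratory chain and of the ATP synthase. Nearly all of its proteins are encoded in the nucleus, made in the cytosol and imported, while its rRNAs come from mitochondrial DNA. Part of the proteins have a counterpart in the bacterial ribosome and the others are found in mitochondria only. In yeast these genes are transcribed apart from those of the cytosolic ribosome, and without mitochondrial translation cells cannot respire. NuA4 acetylates histones H4 and H2A. Epl1 anchors its catalytic module, called piccolo NuA4, and Eaf1 is the scaffold that holds this module together with the remaining subunits.

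The mutant strains were Epl1 1:380 and Epl1 1:485, FLAG-tagged truncations of Epl1, and a deletion of EAF1. Their controls were full-length FLAG-tagged Epl1 for the truncations and HA-tagged Eaf1 1:982 for the deletion. The label of Eaf1 1:982 calls it a C-terminal truncation, but EAF1 has 982 codons in the gene table, so the stated range covers the whole protein. EPL1 has 832 codons. The titles of the deletion arrays name an HA tag and their strain label does not, so its tag status is unclear. Each strain was hybridised on 2 two-colour arrays against a common reference pool, with the strain in Cy3 on array a and in Cy5 on array b. The labels do not say whether arrays a and b came from separate cultures, so p-values measure the spread between arrays, which may be technical. All values are log2 ratios of strain over pool from the deposited normalised table, with the 2 spots of a gene averaged. Cultures were in mid-log growth, and each value is relative to the total mRNA of a culture, so a change in all cells and a larger one in part of them cannot be told apart.

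The targeted genes were read on each array. EAF1 read -2.0 and -2.14 in the eaf1 deletion, against 0.74 and 0.54 in Eaf1 1:982. EPL1 itself was higher in the deletion, at 1.06 and 1.14, against 0.59 and 0.58 in Eaf1 1:982. In the truncations EPL1 read 0.34 and 0.36 in Epl1 1:380 and 0.57 and 0.37 in Epl1 1:485, against -0.05 and -0.01 in tagged Epl1. Where the EPL1 probe lies on the gene is not known here, so this does not check the truncations. All 134 spots of the members exceeded the local background in both channels on the 10 arrays, and no member spot was saturated. Replicate arrays correlated across features with r of 0.922, 0.922 and 0.875 in the mutants and with r of 0.678 and 0.703 in the control strains, where features varied less around the pool. In values rebuilt from the scanner intensities, used below as an alternative, r was 0.814, 0.728 and 0.81 in the mutants. It was only 0.142 in tagged Epl1 and 0.284 in Eaf1 1:982. Array b of Epl1 1:380 differs from the other 9 strain samples in its labelled RNA isolation protocol, so both values are given where it matters.

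The members stood above the pool in the mutants and near it in the control strains. Their median log2 ratio was 0.41 and 0.34 on the Epl1 1:380 arrays, 0.37 and 0.39 on the Epl1 1:485 arrays and 0.34 and 0.30 on the eaf1 deletion arrays. On the tagged Epl1 arrays it was -0.02 and 0.02, and on the Eaf1 1:982 arrays 0.05 and 0.07. The 6 mutant arrays therefore lay above the 4 control arrays, and the median over all features ran from -0.01 to 0.02. The members also spread more widely in the mutants, as did all features. On mutant arrays the members' quartiles ran from 0.14 to 0.41 at the narrowest and from 0.15 to 0.55 at the widest. On the tagged Epl1 arrays they ran from -0.073 to 0.046 and from -0.035 to 0.093. On the Eaf1 1:982 arrays they ran from -0.005 to 0.11 and from -0.005 to 0.123. The quartiles of all features ran from -0.18 to 0.199 on array a of Epl1 1:380. On array a of tagged Epl1 they ran from -0.075 to 0.067.

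**Figure D1:**
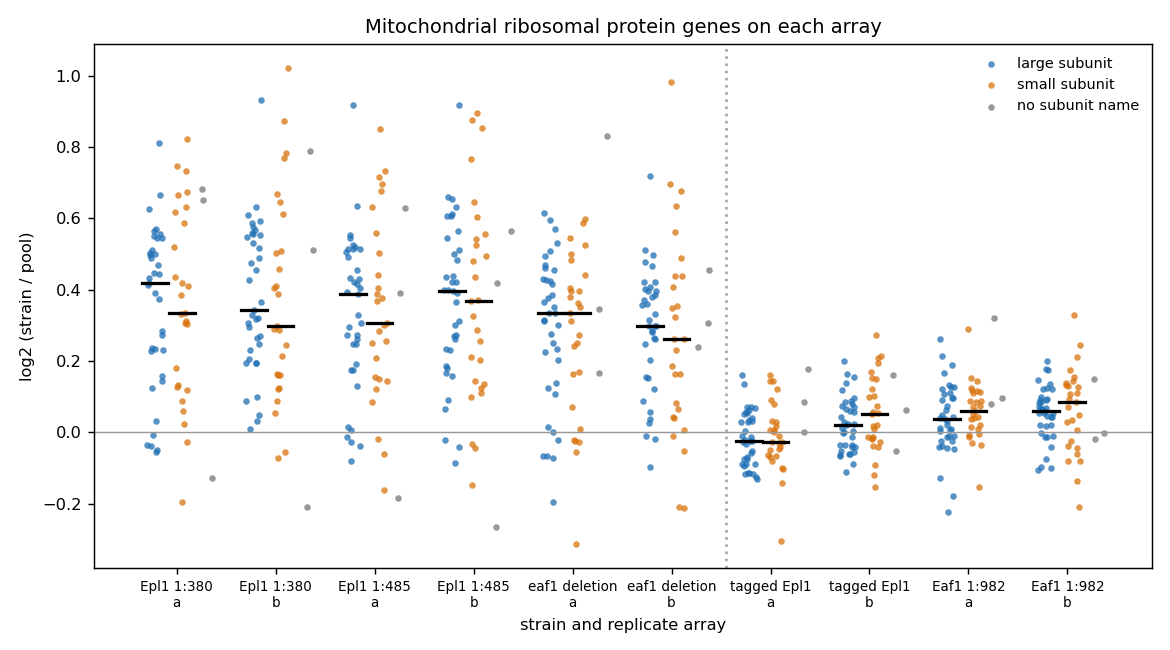
Log2 ratio of strain over pool (y axis) of 67 mitochondrial ribosomal protein genes on each of 10 arrays (x axis, mutants left of the dotted line, control strains right of it). A point is 1 gene, coloured by subunit, and black bars are medians of the large and the small subunit. The bars lie between 0.26 and 0.42 on mutant arrays and between -0.03 and 0.09 on control arrays.

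Each strain was tested against the pool with limma across all features, with a gene counted where its Benjamini-Hochberg adjusted p was under 0.05. Above the pool were 54 of 67 members in Epl1 1:380 (32.1% of all features), 55 in Epl1 1:485 (30.8% of features) and 47 in the eaf1 deletion (29.2% of features). In tagged Epl1 it was 1 member, RSM23 (4.74% of features), and in Eaf1 1:982 it was 4, namely MRPL22, MRPL23, MRPL31 and RSM23 (6.59% of features). MRPS16, protein bS16m, was the 1 member below the pool in Epl1 1:485 and also the 1 in the eaf1 deletion. It was already low in the control strains, with -0.30 and -0.09 in tagged Epl1 and -0.15 and -0.21 in Eaf1 1:982. From scanner intensities no member was below the pool in Epl1 1:380, Epl1 1:485 or the deletion, against 1229, 1127 and 979 of 6377 features. The pool is a common reference and no control of these strains, so the comparisons with each mutant's own control follow.

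In Epl1 1:380, 45 of 67 members rose over tagged Epl1, against 21.7% of all features (limma, adjusted p under 0.05). None fell, against 19.1% of features. At an unadjusted p under 0.05, 0 members and 1453 of 6377 features were lower. The median change over the members was 0.38 on the log2 scale, or 1.30-fold, beside 0.01 over all features. Positive changes were found in 65 members, with MET13 and RSM19 as the exceptions. Ranked among all features by change, the members had a median percentile of 90.2. The changes were moderate in size: 3 members, MRP2, RSM18 and MRPL19, rose by more than 1.7-fold, against 2.76% of features. On both mutant arrays 56 members exceeded both tagged Epl1 arrays, which was so for 39.1% of features. Without array b, which has the other RNA isolation label, 42 members passed and the median change was 0.37, but 1 member remained past 1.7-fold. Values rebuilt from the scanner intensities gave 28 rises around a median of 0.40, against rises in 9.63% of features. Centring on added control RNA gave none, while 61 of 67 members lay above the median change of all features. Only 39 of 6377 features passed under that centring.

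The longer fragment gave a similar picture. In Epl1 1:485, 47 of 67 members rose over tagged Epl1 (19.4% of features) and none fell (17.6% of features). At an unadjusted p under 0.05, 1 member, MET13, was lower, beside 1403 of 6377 features. The median change was 0.36, or 1.28-fold, and 63 members had a positive change. MRP2, MRPL19, RSM18 and RSM10 rose by more than 1.7-fold, against 2.23% of features. On both mutant arrays 55 members lay above both control arrays (37.9% of features). This comparison shares its control arrays with that of Epl1 1:380, so the lists are not independent. From scanner intensities 27 members rose (8.23% of features) around a median of 0.40 and 2 of them passed 1.7-fold. With added RNA centring none rose, and only 19 of 6377 features passed. Under that centring 59 of 67 members lay above the median change of all features. Without array a of tagged Epl1, 2 members passed 1.7-fold.

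In the eaf1 deletion, 36 of 67 members rose over Eaf1 1:982, against 17.8% of features, and none fell, against 15.8% of features. No member was lower at an unadjusted p under 0.05. The members' median percentile among all features was 85.9. The median change was 0.26, or 1.20-fold, with 59 positive changes, beside 0.01 over all features. In limma no member rose by more than 1.7-fold, against 2.07% of features. Without array a of the deletion 1 member passed both limits. On both deletion arrays 48 members exceeded both Eaf1 1:982 arrays (33.3% of features), and 4, all of the small subunit, lay below both. None of these 4 passed the test, and the share of features below both was not counted. The count of 36 moved with the processing: 11 members rose from scanner intensities, around a nearly equal median of 0.25. The share of all features that rose moved as well, from 17.8% to 6.08%. With added RNA centring none rose, while 55 of 67 members lay above the median change of all features. No feature passed under that centring, so its count of rises cannot tell the members from other genes.

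Among the large subunit proteins, MRPL19 changed most. It encodes uL11m, the counterpart of a bacterial protein at the site where translation factors bind. MRPL19 read 0.81 and 0.93 in Epl1 1:380 and 0.92 and 0.92 in Epl1 1:485, against -0.01 and 0.17 in tagged Epl1. The eaf1 deletion arrays read 0.49 and 0.72, against 0.01 and 0.12 in Eaf1 1:982. The mutant and control arrays did not overlap in any of the 3 comparisons. Its changes were 0.80 ± 0.09 in Epl1 1:380, 0.84 ± 0.09 in Epl1 1:485 and 0.54 ± 0.09 in the deletion (log2, SE, n = 2 arrays per strain), with limma adjusted p of 2.00e-04, 1.94e-04 and 0.00202.

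MRPL50 encodes bL9m, the counterpart of a bacterial large subunit protein. Its log2 ratios were 0.63 and 0.56 in Epl1 1:380 and 0.55 and 0.61 in Epl1 1:485, against -0.12 and 0.07 in tagged Epl1. They were 0.43 and 0.42 in the eaf1 deletion, against 0.02 and -0.01 in Eaf1 1:982. All mutant arrays thus lay well above their controls, and the changes were 0.62 ± 0.07, 0.60 ± 0.07 and 0.42 ± 0.07. MRPL40, protein uL24m, had closely spaced controls, with 0.00 and 0.01 in tagged Epl1 and 0.03 and 0.05 in Eaf1 1:982. Against these it rose by 0.53 ± 0.05 in Epl1 1:380, by 0.56 ± 0.05 in Epl1 1:485 and by 0.36 ± 0.05 in the deletion.

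Among proteins found only in mitochondria, MRPL27, protein mL41, read 0.42 and 0.43 in Epl1 1:380 and 0.40 and 0.55 in Epl1 1:485, against -0.09 and -0.04 in tagged Epl1. MRPL27 read 0.43 and 0.40 in the eaf1 deletion, against -0.04 and 0.02 in Eaf1 1:982. All 3 of its changes passed, at 0.49, 0.54 and 0.42 (SE 0.06). MRPL13, protein mL50, rose by 0.54 in Epl1 1:380 and by 0.52 in Epl1 1:485 (SE 0.10). Its deletion arrays disagreed more, with 0.60 and 0.28 against 0.11 and 0.06 in Eaf1 1:982. That rise of 0.36 (adjusted p = 0.0232) was lost without deletion array a or without either Eaf1 1:982 array, where the adjusted p reached 0.114.

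MRPL9 differed from the members above because its largest change was that in the deletion. It was not alone, since MRP20 changed by 0.36 in the deletion, against 0.21 in Epl1 1:380 and 0.17 in Epl1 1:485. MRPL9 was named for its rise in the deletion. It encodes uL3m, whose bacterial counterpart reaches towards the peptidyl transferase centre. MRPL9 read 0.41 and 0.32 in Epl1 1:380 and 0.42 and 0.39 in Epl1 1:485, against -0.01 and -0.04 in tagged Epl1. In the eaf1 deletion it read 0.51 and 0.50, against 0.04 and -0.07 in Eaf1 1:982. The changes were 0.39 ± 0.06, 0.43 ± 0.06 and 0.52 ± 0.06, all past the test, but the difference between truncations and deletion did not pass it.

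Among the small subunit proteins, MRP2 led in all 3 comparisons. It encodes uS14m, the counterpart of a bacterial protein in the head of the small subunit. MRP2 read 0.82 and 1.02 in Epl1 1:380 and 0.85 and 0.88 in Epl1 1:485, against -0.05 and 0.05 in tagged Epl1. In the eaf1 deletion it read 0.54 and 0.98, against 0.11 and 0.16 in Eaf1 1:982. The arrays did not overlap, although the deletion arrays differed from each other by more than in the other strains. MRP2 rose by 0.92 ± 0.12 in Epl1 1:380 (1.89-fold, adjusted p = 4.99e-04), by 0.86 ± 0.12 in Epl1 1:485 (1.82-fold, adjusted p = 8.53e-04) and by 0.63 ± 0.12 in the deletion (1.55-fold, adjusted p = 0.0047).

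RSM18, protein bS18m, and RSM10, protein uS10m, followed. RSM18 read 0.62 and 0.77 in Epl1 1:380 and 0.68 and 0.77 in Epl1 1:485, against -0.03 and -0.15 in tagged Epl1, and 0.41 and 0.64 in the eaf1 deletion, against -0.03 and 0.09 in Eaf1 1:982. RSM10 read 0.75 and 0.78 in Epl1 1:380 and 0.73 and 0.90 in Epl1 1:485, against 0.02 and 0.06 in tagged Epl1. In the deletion RSM10 read 0.53 and 0.70, against -0.03 and 0.13 in Eaf1 1:982. For both genes each mutant array exceeded each control array. The changes of RSM18 were 0.78, 0.81 and 0.49 (SE 0.09), and those of RSM10 were 0.73, 0.78 and 0.56 (SE 0.08).

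MRPS17, protein uS17m, had control values above the pool, at 0.09 and 0.21 in tagged Epl1 and 0.11 and 0.25 in Eaf1 1:982. It rose by 0.65 in Epl1 1:380, by 0.63 in Epl1 1:485 and by 0.46 in the deletion (SE 0.08). RSM27, protein mS33 and specific to mitochondria, rose by 0.65 in Epl1 1:380, by 0.57 in Epl1 1:485 and by 0.40 in the deletion (SE 0.07). Its control arrays stayed between -0.10 and 0.01.

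**Figure D2:**
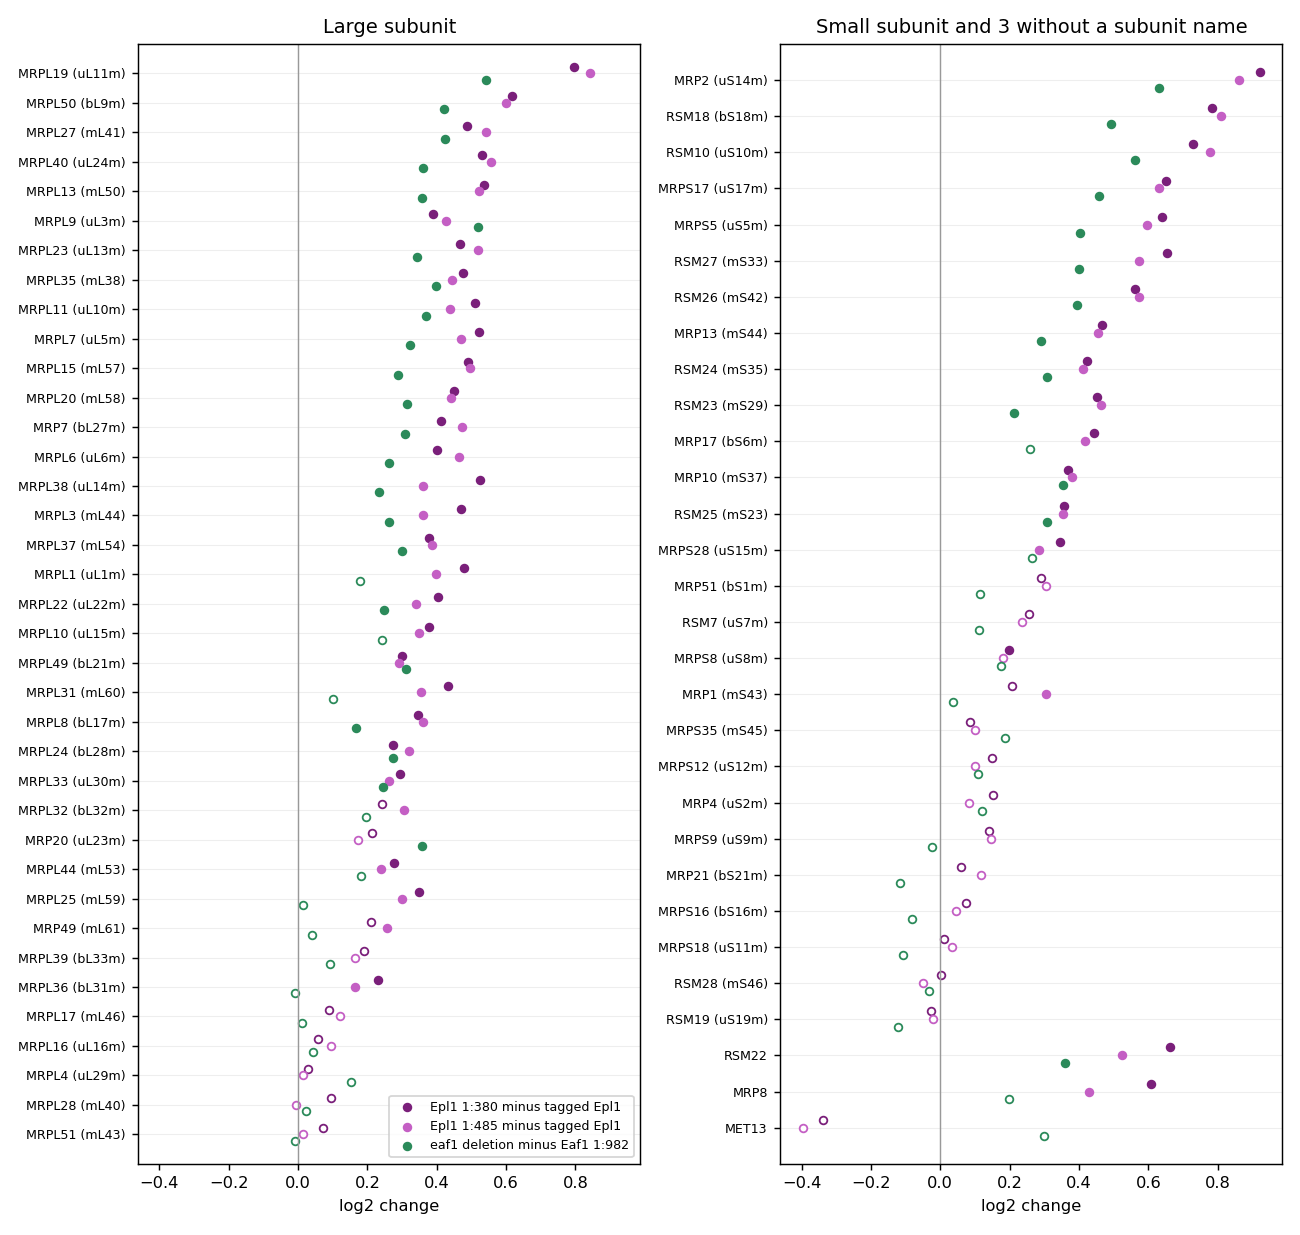
Log2 change (x axis) of each member (y axis, gene with its protein name) in Epl1 1:380 and Epl1 1:485 over tagged Epl1 and in the eaf1 deletion over Eaf1 1:982. Filled points passed the test (adjusted p under 0.05) and open points did not; left, 37 large subunit genes, right, 27 small subunit genes and the 3 without a subunit name. Changes range from -0.12 to 0.92 in the small subunit and from -0.01 to 0.84 in the large subunit.

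The members between these ends lay spread over the range. The quartiles of the change over the large subunit were 0.24 and 0.48 in Epl1 1:380, 0.26 and 0.47 in Epl1 1:485 and 0.15 and 0.34 in the eaf1 deletion. Examples were chosen after their values were seen. MRPL11, protein uL10m at the base of the ribosomal stalk, read 0.55 and 0.55 in Epl1 1:380 and 0.53 and 0.44 in Epl1 1:485, against 0.06 and 0.02 in tagged Epl1. In the deletion MRPL11 read 0.53 and 0.48, against 0.10 and 0.18 in Eaf1 1:982. The mutant arrays lay far from the control arrays, and MRPL11 rose by 0.51, 0.44 and 0.37. MRPS5, protein uS5m, rose by 0.64, 0.60 and 0.40 with an SE of 0.06 and had the smallest adjusted p of the 67 members in Epl1 1:380 (4.62e-05). RSM26, protein mS42, rose by 0.56, 0.57 and 0.40. The arrays of MRP51, protein bS1m, disagreed in the deletion. MRP51 read -0.03 and 0.44 in the deletion, against 0.04 and 0.14 in Eaf1 1:982, and with an SE of 0.13 none of its changes passed, at 0.29, 0.31 and 0.11.

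Some members changed little. The genes nearest to no change were picked out after their values were seen. RSM19, protein uS19m, changed by -0.03, -0.02 and -0.12 in Epl1 1:380, Epl1 1:485 and the deletion, and RSM28, protein mS46, by 0.00, -0.05 and -0.03. MRPL51, protein mL43, changed by 0.07, 0.01 and -0.01, and MRPL4, protein uL29m, by 0.03, 0.01 and 0.15. None of these 12 changes passed the test, and the SEs ran from 0.06 to 0.08. MRPS18, MRPS16, MRP21, MRPL16, MRPL17 and MRPL28 likewise had changes between -0.12 and 0.12 without a call. They include proteins with a bacterial counterpart, such as uL16m of MRPL16 and uS11m of MRPS18, as well as proteins specific to mitochondria.

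The members without a subunit name fell into 2 patterns. RSM22, a methyltransferase-like protein of the small mitochondrial subunit, read 0.68 and 0.79 in Epl1 1:380 and 0.63 and 0.57 in Epl1 1:485, against 0.09 and 0.06 in tagged Epl1. In the eaf1 deletion it read 0.35 and 0.46, against 0.10 and -0.02 in Eaf1 1:982. It rose by 0.66, 0.52 and 0.36 (SE 0.07). MRP8, whose function is not settled, rose by 0.61 in Epl1 1:380 and by 0.43 in Epl1 1:485 (SE 0.07). Its change of 0.20 in the deletion missed the test (adjusted p = 0.0559) and passed it with the replicate letter as a block, at an equal size, and without array a of the deletion or either array of Epl1 1:380.

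MET13, a methylenetetrahydrofolate reductase that belongs to the set by its synonym alone, ran opposite to nearly all members in the truncations. It read -0.13 and -0.21 in Epl1 1:380 and -0.19 and -0.27 in Epl1 1:485, against 0.18 and 0.16 in tagged Epl1. In the eaf1 deletion it read 0.83 and 0.24, against 0.32 and 0.15 in Eaf1 1:982. The truncation arrays lay below both controls, while the deletion arrays differed from each other by 0.59. Its changes of -0.34 ± 0.15 and -0.40 ± 0.15 in the truncations missed the test (adjusted p = 0.111 and 0.0738), as did that of 0.30 ± 0.15 in the deletion (adjusted p = 0.17). With the replicate letter as a block both truncation changes passed (adjusted p = 0.0406 and 0.0237). They also passed without array a or b of the deletion, at adjusted p of 0.00448 in Epl1 1:380 and 0.0024 in Epl1 1:485, since the fit shares 1 estimate of the spread. The deletion change passed without deletion array b (adjusted p = 0.00156).

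Both subunits rose, and their medians were close. Of the large subunit, 28 of 37 members rose in Epl1 1:380, 30 in Epl1 1:485 and 23 in the eaf1 deletion, with median changes of 0.39, 0.36 and 0.26. Of the small subunit, 15 of 27 members rose in Epl1 1:380, 15 in Epl1 1:485 and 12 in the deletion, with median changes of 0.35, 0.31 and 0.21. The large subunit median exceeded the small subunit median by 0.04, 0.05 and 0.05 in these comparisons. Within single arrays the difference ran from -0.03 to 0.08. The small subunit was the more spread, since its quartiles in Epl1 1:380 were 0.15 and 0.51, against 0.24 and 0.48 in the large subunit. It held the largest change, that of MRP2, and most of the changes below 0 in the deletion, 6 of its 27 members against 2 of 37 in the large subunit. In Epl1 1:485 the subunit difference was 0.01 from scanner intensities, -0.07 with added RNA centring and 0.00 without array a of that strain. In the deletion it was -0.01 or 0.00 without either deletion array or without array a of Eaf1 1:982.

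The evolutionary origin of the protein gave similarly close medians. Among 40 members with a bacterial counterpart, 26 rose in Epl1 1:380, 26 in Epl1 1:485 and 21 in the deletion, with median changes of 0.35, 0.33 and 0.25. Among 24 members specific to mitochondria, 17, 19 and 14 rose, with medians of 0.40, 0.37 and 0.28. The members with the largest changes, MRP2, MRPL19, RSM18 and RSM10, all have a bacterial counterpart, and the highest change among the mitochondrion-specific ones was 0.65, that of RSM27 in Epl1 1:380.

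The truncations were also compared with each other, to see whether the longer fragment of Epl1 made a difference for these genes. No member passed the test between Epl1 1:380 and Epl1 1:485 (0% of features, limma), and 2 members were higher in Epl1 1:380 at an unadjusted p under 0.05. The replicate block also gave 0. The median difference was 0.02. The largest was 0.18 for MRP8, with a 95% interval of 0.02 to 0.33, and the lowest was -0.10 for MRP1, with an interval of -0.28 to 0.08. MRP1, protein mS43, rose by 0.31 in Epl1 1:485 and its change of 0.21 in Epl1 1:380 missed the test (adjusted p = 0.0655). The rise in Epl1 1:485 did not pass without its array b or without array a of tagged Epl1, and the change in Epl1 1:380 passed with the replicate block or without array b of that strain. The median half-width of the interval over features was 0.16, so differences below about that size could not be resolved.

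The control strains were compared in the same way. Eaf1 1:982 against tagged Epl1 gave 0 members past the test (0.0627% of features), 2 at an unadjusted p under 0.05 and 0 with the replicate block. The median difference was 0.04. The ends were MRPS28, protein uS15m, at 0.16 with an interval of -0.05 to 0.38, and MRPL24, protein bL28m, at -0.05 with an interval of -0.24 to 0.15. MRPS28 rose by 0.35 in Epl1 1:380 and by 0.29 in Epl1 1:485, and both calls were lost without either array of tagged Epl1. The first was also lost without array b of Epl1 1:380, and the second without any array of Epl1 1:485 or Eaf1 1:982. The deletion change of MRPS28, 0.27, missed the test and passed it under the block, in a fit of only the groups compared, and without either array of Epl1 1:380. MRPL24 rose by 0.28, 0.32 and 0.28 in the 3 mutants, and each call was lost without certain single arrays, with adjusted p of up to 0.19.

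Changes of the members were mostly larger in the truncations than in the deletion. Against the pool, the mean of the truncations exceeded the eaf1 deletion in 10 members (12.1% of features) and fell below it in MET13 (11.6% of features), with a median difference of 0.11. The count of 10 in 67 lies close to the share among all features. With the replicate letter as a block 21 members were higher, a count given without the share of features. From scanner intensities none was higher, beside 200 of 6377 features. MET13 was lower in both. The 10 members were MRP8, MRP13, MRPL1, MRPL19, MRPL31, MRPL36, MRPL40, MRPS5, MRPS9 and RSM22. MRPL36, protein bL31m, read 0.23 and 0.27 in Epl1 1:380 and 0.17 and 0.19 in Epl1 1:485, against -0.07 and 0.06 in the eaf1 deletion. The 3 largest differences were those of MET13, at -0.73 ± 0.13 (adjusted p = 0.00479), MRPL19, at 0.29 ± 0.08 (adjusted p = 0.0276), and RSM22, at 0.27 ± 0.06 (adjusted p = 0.01). Without deletion array a, 5 members passed in either direction, MET13 was at -0.44, and MRPL19 and RSM22 missed the test. Without array b of Epl1 1:485, 6 passed, and without deletion array b, 16. MRPL19 also missed the test without array b of Epl1 1:380 or either array of Epl1 1:485.

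Setting each effect against its own control gave the same order. The mean truncation effect exceeded the deletion effect in 60 of 67 members, with a median difference of 0.13, beside 0.00 over all features. From scanner intensities it was larger in 56 of 67 members and in 3143 of 6377 features. This contrast also includes the difference between the control strains. The difference itself passed the test in 1 member, MRPL31 (3.21% of features higher and 2.71% lower). MRPL31, protein mL60, read 0.49 and 0.49 in Epl1 1:380, 0.39 and 0.44 in Epl1 1:485, and 0.24 and 0.25 in the deletion. It read 0.03 and 0.09 in tagged Epl1 and 0.13 and 0.15 in Eaf1 1:982. The arrays of a strain lay within 0.06 of each other, so the difference of 0.29 ± 0.07 (adjusted p = 0.0339) rests on small spread. It was not past the test from scanner intensities (adjusted p = 0.846) or without any 1 of 9 arrays (adjusted p of 0.0561 to 0.13). Leaving out deletion array b kept MRPL31 and brought the count to 5.

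**Figure D3:**
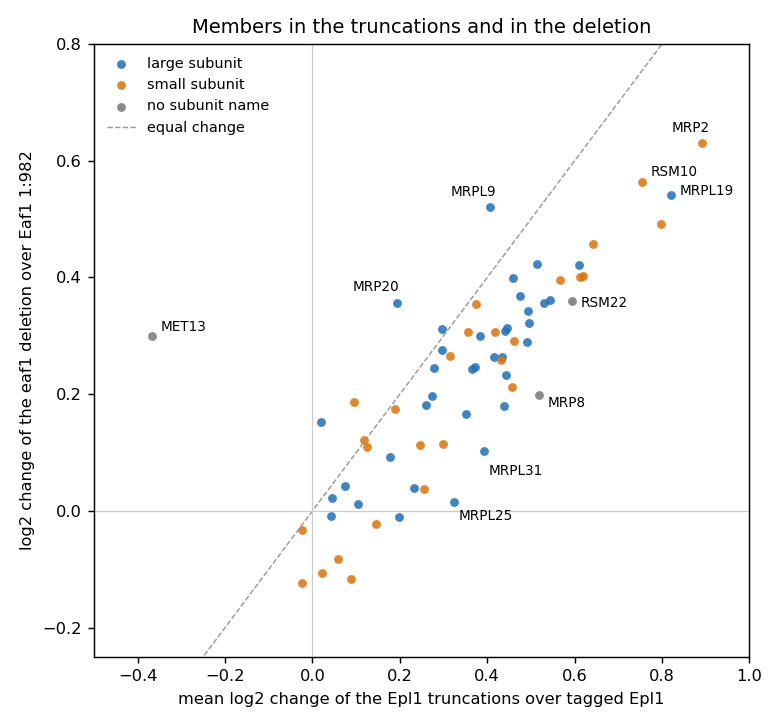
Mean log2 change of the Epl1 truncations over tagged Epl1 (x axis) against the log2 change of the eaf1 deletion over Eaf1 1:982 (y axis) for 67 members, coloured by subunit. The dashed line marks equal change, and 60 members lie below it, with MET13 far to the left and MRPL9 and MRP20 above the line.

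The size of change ran in parallel across members. Over the 67 members the mean truncation effect and the deletion effect had a Pearson r of 0.781 and a Spearman rho of 0.824. Over the 64 with a subunit name, r was 0.875 and rho 0.862. Within the large subunit r was 0.779 (37 genes) and within the small subunit 0.937 (27 genes). These effects come from different mutants and different control strains, but the arrays share the pool, the platform and the dye orientations, and genes are not independent replicates. Of the 36 members that rose in the deletion, 35 rose in Epl1 1:380, which is 97.2% of the deletion list and 77.8% of the truncation list. Over all features the shared rises were 66.8% of the deletion list and 54.7% of the truncation list. With Epl1 1:485 the shared number was also 35, which is 97.2% of the deletion list and 74.5% of the truncation list, against 64.5% and 59.1% over all features. The shares were not tested against each other, and any overlap is larger where more genes rise. The exception was MRP20, protein uL23m, which rose by 0.36 in the deletion and changed by 0.21 in Epl1 1:380 (adjusted p = 0.131) and 0.17 in Epl1 1:485 (adjusted p = 0.222). Its difference between truncations and deletion did not pass the test.

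Some mitoribosomal protein genes carry other names. Of 13 measured, 9 rose in Epl1 1:380, 7 in Epl1 1:485 and 9 in the eaf1 deletion, and none fell. That is 69.2%, 53.8% and 69.2% of the list, beside rises in 21.7%, 19.4% and 17.8% of all features and falls in 19.1%, 17.6% and 15.8%. From scanner intensities 5, 2 and 1 rose, beside 9.63%, 8.23% and 6.08% of features. The difference between the truncation and the deletion effect had a median of 0.03 in this list, with 7 of 13 positive. Their median changes were 0.29, 0.28 and 0.25, and no member of the list was lower at an unadjusted p under 0.05. YML6, protein uL4m, rose by 0.54, 0.51 and 0.70. MNP1, the stalk protein bL12m, rose by 0.46, 0.42 and 0.28, and RTC6, protein bL36m, by 0.46 in Epl1 1:380. IMG2, protein mL49, rose by 0.34, 0.39 and 0.34 and FYV4, protein mS41, by 0.36, 0.37 and 0.41. VAR1, the ribosomal protein encoded in mitochondrial DNA, read 0.52 and 0.48 in the deletion, against 0.15 and 0.12 in Eaf1 1:982, a rise of 0.36 ± 0.06. In the truncations it changed by 0.12 and 0.13, which did not pass (adjusted p = 0.132 and 0.111).

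The rest of the mitochondrial translation apparatus was mixed. Of 17 translation factors, 5 rose and 1 fell in each truncation, and 4 rose and 2 fell in the deletion, with medians of 0.08, 0.14 and 0.04. The rises, 29.4%, 29.4% and 23.5% of the list, lay near the shares of all features. From scanner intensities 3 rose and 1 fell in each truncation, and none rose or fell in the deletion. MEF1, the elongation factor that translocates the ribosome, rose by 0.57, 0.52 and 0.32. MBA1, which ties ribosomes to the inner membrane, rose by 0.54, 0.57 and 0.43, and AIM23, the initiation factor, rose by 0.48, 0.50 and 0.30. MEF2, a factor of ribosome recycling, fell by 0.56, 0.49 and 0.32 on the log2 scale in Epl1 1:380, Epl1 1:485 and the deletion.

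Aminoacyl-tRNA synthetases and related enzymes of mitochondria changed in both directions. Of 16, 6 rose and 2 fell in Epl1 1:380, 7 rose and 3 fell in Epl1 1:485, and 1 rose and 4 fell in the deletion, with medians of 0.21, 0.21 and 0.00. The rises were 37.5%, 43.8% and 6.25% of the list and the falls 12.5%, 18.8% and 25%. Over all features 21.7%, 19.4% and 17.8% rose and 19.1%, 17.6% and 15.8% fell. From scanner intensities 2 rose and 1 fell in each truncation, and none rose and 1 fell in the deletion. The difference between the truncation and the deletion effect passed in 1 of the 16, MSF1, with a median of 0.15 over the list. MSF1, the phenylalanyl-tRNA synthetase, rose by 0.28 and 0.25 in the truncations and fell by 0.24 in the deletion. HER2, a subunit of the enzyme that makes glutaminyl-tRNA, rose by 0.32 and 0.27 in the truncations, and AIM10, a prolyl-tRNA synthetase, by 0.33 and 0.30. MSK1, the lysyl-tRNA synthetase, fell by 0.40 and 0.44 in the truncations. In the deletion MSD1, the aspartyl-tRNA synthetase, fell by 0.31 and SLM5, the asparaginyl-tRNA synthetase, rose by 0.31.

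Of 18 activators of single mitochondrial mRNAs, 7 rose and 1 fell in Epl1 1:380, 5 rose and 1 fell in Epl1 1:485, and 2 rose and 1 fell in the deletion. The rises were 38.9%, 27.8% and 11.1% of the list and the falls 5.56% in each mutant. Over all features 21.7%, 19.4% and 17.8% rose and 19.1%, 17.6% and 15.8% fell. From scanner intensities 1, 1 and 0 rose and none fell. MAM33, a matrix protein, rose by 0.77 and 0.71 in the truncations. CBP6, which acts on cytochrome b mRNA, rose by 0.50, 0.48 and 0.27, and its partner CBP3 by 0.23 in Epl1 1:380 and 0.30 in Epl1 1:485. AEP3, which acts on the mRNA for ATP synthase subunits, rose by 0.30 and 0.27 in the truncations. In the deletion MSS51, the activator of cytochrome oxidase subunit 1 mRNA, rose by 0.45 and CBS1, an activator of cytochrome b mRNA, fell by 0.38.

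Among 8 genes of mitochondrial transcription and RNA decay, MTF1, the transcription factor, rose by 0.37, 0.33 and 0.26. MSS116, a helicase for intron splicing, fell by 0.31, 0.31 and 0.35. RPO41, the mitochondrial RNA polymerase, rose by 0.28 in Epl1 1:380. RPM2, the protein subunit of mitochondrial RNase P, read 1.04 and 1.02 in the deletion, against 0.36 and 0.27 in Eaf1 1:982, a rise of 0.72 ± 0.08, and did not pass in the truncations. These were all the calls in this list, with 2 rises and 1 fall in Epl1 1:380, 1 rise and 1 fall in Epl1 1:485, and 2 rises and 1 fall in the deletion. The rises were 25%, 12.5% and 25% of the list and the falls 12.5% in each mutant. Over all features 21.7%, 19.4% and 17.8% rose and 19.1%, 17.6% and 15.8% fell. From scanner intensities 1, 0 and 1 rose and none fell.

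Of 10 regulators, HAP4 and HAP5 passed in all 3 mutants and in opposite directions. HAP4, the activating subunit of the HAP complex that drives respiratory genes, read 0.74 and 0.57 in Epl1 1:380 and 0.56 and 0.63 in Epl1 1:485, against -0.05 and -0.15 in tagged Epl1. In the deletion it read 0.90 and 0.84, against 0.03 and 0.10 in Eaf1 1:982. HAP4 therefore rose by 0.75, 0.69 and 0.80 (SE 0.07). HAP5, a DNA-binding subunit of the same complex, fell by 0.29, 0.28 and 0.19. In the 3 mutants 10%, 20% and 10% of the list rose and 20%, 20% and 10% fell. Over all features 21.7%, 19.4% and 17.8% rose and 19.1%, 17.6% and 15.8% fell. From scanner intensities 1 of the 10 rose in each mutant and 1 fell in Epl1 1:380. TOD6, a repressor of ribosome biogenesis genes, fell by 0.39 in Epl1 1:380 and 0.29 in Epl1 1:485, and its change of 0.23 in the deletion did not pass.

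Genes for assembly of the cytosolic ribosome fell. Of 87 ribosome biogenesis genes, 75 fell in Epl1 1:380, 67 in Epl1 1:485 and 50 in the eaf1 deletion, and none rose. That is 86.2%, 77% and 57.5% of the list, and from scanner intensities 50, 33 and 16 fell, beside 8.59%, 7.17% and 4.94% of features. Their median changes were -0.48, -0.38 and -0.28. BRX1, a factor of large subunit assembly, fell by 0.90, 0.77 and 0.85, and BMS1, a GTPase of small subunit assembly, by 0.78, 0.78 and 0.66. UTP13, of the small subunit processome, fell by 0.64 in the deletion. CGR1 fell by 1.10 and 0.86 in the truncations, and RRP8, a nucleolar methyltransferase, and NOP7, an assembly factor, fell by 0.90 and 0.91 in Epl1 1:380. Among 125 cytosolic ribosomal protein genes 18 fell and none rose in Epl1 1:380, 16 fell and 3 rose in Epl1 1:485, and 5 fell and 3 rose in the deletion. The falls, 14.4%, 12.8% and 4% of this list, lay below the 19.1%, 17.6% and 15.8% of all features that fell. The rises, 0%, 2.4% and 2.4%, lay below the 21.7%, 19.4% and 17.8% of features that rose. From scanner intensities 22, 16 and 1 fell, or 17.6%, 12.8% and 0.8% of the list. In the truncations these shares lay above the 8.59% and 7.17% of features that fell, and in the deletion below 4.94%. Their medians were -0.11, -0.13 and -0.06, and from scanner intensities they were -0.27, -0.27 and -0.15. RPS21B, RPL18B and RPL6A fell by 1.31, 0.60 and 0.67 in Epl1 1:380, and RPS21B, RPL40A and RPL18B fell by 1.07, 0.57 and 0.57 in Epl1 1:485. In the deletion RPP2A and RPS29B rose by 0.47 and 0.44, and RPS2 fell by 0.42. Signals of paralog pairs of near-identical sequence may not be told apart by hybridisation.

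**Figure D4:**
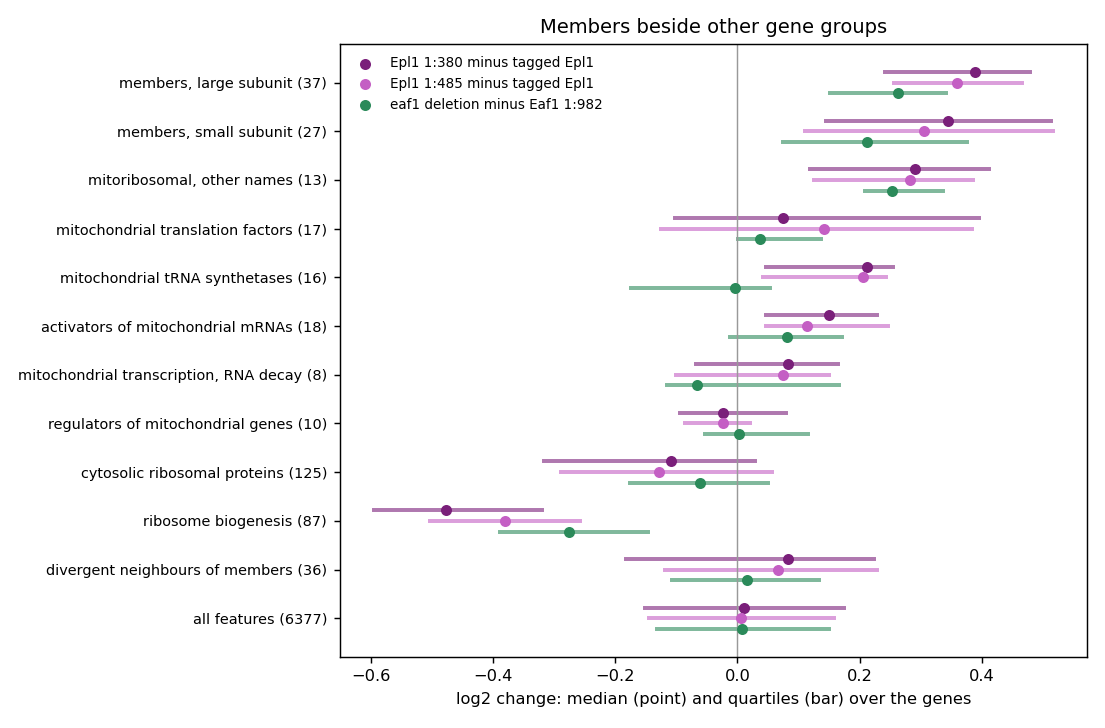
Median log2 change (points) and quartiles (bars) of gene groups (y axis, number of genes in brackets) in Epl1 1:380 and Epl1 1:485 over tagged Epl1 and in the eaf1 deletion over Eaf1 1:982. The members and the other mitoribosomal genes lie between 0.21 and 0.39, ribosome biogenesis genes between -0.48 and -0.28, and all features at 0.01.

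Genes next to a member that point away from it were counted as well. Pairs were taken from gene order and strand alone, without distance or overlap, so they need not share an upstream region. By gene order in the R64 table, 36 members had a measured divergent neighbour, a gene on the opposite strand whose start faces theirs. Of these neighbours 9 rose and 7 fell in Epl1 1:380, 10 rose and 6 fell in Epl1 1:485, and 5 rose and 6 fell in the eaf1 deletion. The rises were 25%, 27.8% and 13.9% and the falls 19.4%, 16.7% and 16.7%, near the shares of all features. From scanner intensities 3 rose in each mutant and 5, 3 and 2 fell. The median changes were 0.08, 0.07 and 0.02. Single pairs differed, and the following were chosen after their values were seen. Next to MRPL27, which rose in the 3 mutants, DUG2 fell by 0.44, 0.41 and 0.55, and next to RSM24, NGG1 fell by 0.44, 0.45 and 0.48. Next to MRPL3, MSS1 rose by 0.48, 0.43 and 0.42. Next to MRPL31, CMC1 rose by 0.60 in both truncations and changed by 0.21 in the deletion (adjusted p = 0.134), the same order as MRPL31 itself.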

How the data were processed

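RNA of 5 yeast strains, 2 arrays each, was measured on 10 two-colour spotted arrays against 1 reference pool. The table deposited by the authors gives each spot's Cy5 over Cy3 ratio on a log2 scale. Per the deposited protocol text, the authors fitted a loess curve (span 0.4) per print tip to the gene probes, subtracted no background, and afterwards removed gene-specific dye bias. Ratios of array a were multiplied by -1 to give strain over pool, with the direction taken from the dyes in the labels, and the spots of a gene were averaged. The deposited scanner files hold spot intensity and local background. They served for background checks (2.6 background SD) and for alternatives (normexp, offset 50, with loess, span 0.3).

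Strain means were estimated and contrasted in limma 3.58.1 (R 4.3.3), which left 5 residual degrees of freedom beside 4 prior ones, with Benjamini-Hochberg adjustment over 6377 features. A gene passed at an adjusted p under 0.05, and a second count added a fold over 1.7, which is the study's fold limit. The study's own rule, an unadjusted p under 0.01 with that fold, is an alternative. Tables and figures were made with Python 3.11.15. Names were looked up in the R64 gene table, where 5255 of 5315 were symbols and 58 synonyms. Steps were tested on simulated data.

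Replicate letters stand for dye orientation in the labels. The deviations of same-letter arrays correlated in all 10 pairs of strains (r of 0.294 to 0.563, and 0.637 to 0.871 from scanner intensities). The letters were therefore taken to pair the arrays, and a fit with the letter as a block is an alternative. Main counts come from the fit without the block, so this shared deviation stayed in their error. With the block 52, 51 and 44 members rose over their own control in Epl1 1:380, Epl1 1:485 and the deletion. MET13 fell in both truncations, and no member fell in the deletion. These block counts are given without the share of features. The other alternatives were median centring, centring on 8 of 14 added control RNAs, leaving out dim spots, the median of spots, robust eBayes with a trend, fits of the compared groups alone, and leaving out each array.

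The members, gene lists, tests and naming rule were chosen with earlier results of these data known. The rule named, per mutant comparison and subunit, the 4 largest rises and falls that passed, members that passed against the median, MRP8, RSM22, EAF1, EPL1 and up to 3 called genes per other list. In other comparisons it named the 3 largest calls or, without calls, the highest and lowest member. Members given as exceptions to a count, or as examples outside this rule, were chosen after their values were seen.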

Additional observations from a re-analysis of the deposited data

Results flagged for a closer look

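Among all features, 205 were higher and 173 lower in a test of the difference between the mean truncation effect and the deletion effect, each against its own control (limma, adjusted p under 0.05). Of the genes named in the comparisons, 5 passed it. MRPL31, the 1 mitoribosomal protein gene among them, had a difference of 0.29 on the log2 scale. EAF1, the gene removed in the deletion strain, had one of 2.40. MSF1, the mitochondrial phenylalanyl-tRNA synthetase, had one of 0.51 (adjusted p = 0.0183), which was lost without array b of Eaf1 1:982, array a of the deletion or either array of tagged Epl1 (adjusted p of 0.0585 to 0.0853). RPM2, the mitochondrial RNase P protein, had one of -0.61 (adjusted p = 0.00972), lost without array b of Eaf1 1:982 (adjusted p = 0.0517). TOD6, a repressor of ribosome biogenesis genes, had one of -0.57 (adjusted p = 0.0293), which passed without array a of Eaf1 1:982, array b of Epl1 1:380 or array b of the deletion and was lost without any 1 of the other 7 arrays (adjusted p of 0.0559 to 0.117). From scanner intensities with normexp the adjusted p was 0.153 for MSF1, 0.175 for RPM2, 0.12 for TOD6 and 0.846 for MRPL31, with print-tip loess 0.0642, 0.0521, 0.135 and 0.558, and with added RNA centring 1 for each, at similar sizes. EAF1 passed with both scanner settings and not with added RNA centring (adjusted p = 1). With 2 arrays per strain, no test of single outlying arrays was made.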

How the results depend on the processing

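Counts of members that passed stayed within 1.5 times their value under median centring, dim spots left out, the median of spots, trend and robust eBayes and only the groups compared, in the 3 comparisons of a mutant with its own control. No named member reversed a call in any alternative.

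The order below is Epl1 1:380, Epl1 1:485, eaf1 deletion. From scanner intensities with normexp, 28, 27 and 11 members rose, beside 9.63%, 8.23% and 6.08% of features, and 2 of Epl1 1:485 passed the fold limit. With print-tip loess and no background correction, 16 passed in the deletion. Added RNA centring gave 0, 0 and 0 calls, where 39, 19 and 0 of all features passed, and 0 past the fold limit in both truncations. Its median SE of the members was 0.243, against 0.074, and all features shifted up by 0.29, 0.20 and 0.27. The control arrays behind that shift disagreed. Their all-feature medians over the pool were -0.33 and -0.73 in tagged Epl1 and -0.71 and -0.41 in Eaf1 1:982. With added RNA centring the members' medians were 0.59, 0.51 and 0.45, so 0.30, 0.31 and 0.18 above that shift. Against the pool these medians were 0.052, -0.043 and -0.035 in the mutants and -0.51 and -0.51 in tagged Epl1 and Eaf1 1:982. The study's own rule called 3, 4 and 0 members. The median of the members in Epl1 1:485 was 0.40 from scanner intensities, and that of the deletion against the pool 0.29. The large-minus-small difference in Epl1 1:485 was 0.007 from scanner intensities, -0.011 with print-tip loess and -0.072 with added RNA.

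Leaving out single arrays gave 38 to 49, 37 to 50 and 25 to 37 passing members, 1 to 3, 2 to 4 and 0 to 1 past the fold limit, and subunit differences of 0.043 to 0.077, 0.004 to 0.078 and -0.005 to 0.051. Truncations minus deletion gave 5 to 16, and the difference of effects 0 to 5. The replicate block gave 22 and 2 calls in these 2 comparisons, and scanner intensities 1 and 0. The block changed no other count by over 1.5 times and no other named call beyond those given. The cause of these differences was not tested.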
